A study of Mus musculus with 12 samples.

Results

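The genes described here are the 30 histone genes of a mouse array table whose symbols follow the naming of the clustered histone families, H1f, H2ac, H2bc, H3c and H4c followed by a number. They are 30 of 16426 genes that the table measures with a probe set naming 1 gene, and each of the 30 had 1 such probe set. By family, 8 encode linker histone H1, 4 encode H2A, 9 encode H2B, 3 encode H3 and 6 encode H4. The name rule takes in more than replication-dependent genes. By their known roles 24 members are clustered replication-dependent genes, 5 (H1f6, H1f7, H1f8, H2ac1 and H2bc1) are known from testis or oocyte, and H1f10 is a replication-independent linker histone.

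Of the 30 members, 17 lay above the median intensity of their array on all 12 arrays. A further 5 did so on 2 to 11 arrays, 3 on 1 array and 5 on none. The number of members above the median was 19 or 20 on each Treg array and 20 to 24 on each array of transduced cells.

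Core histones H2A, H2B, H3 and H4 form the protein spool around which DNA is wound, and H1 binds the DNA between spools. Replication-dependent histone genes are known to be transcribed mainly in S phase, when newly made DNA has to be packaged, under the coactivator Npat. Their mRNAs have no poly(A) tail and end in a stem-loop that the protein Slbp binds, and they are degraded when DNA synthesis stops, so their level is usually read as a sign of cells in S phase. The labels name total RNA and the Ambion WT Expression Kit, which primes along transcripts and not at poly(A) tails alone.

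The samples form 6 groups of 2 arrays. Treg groups held regulatory T cells sorted as live CD4+ CD25-high cells from spleens of mice with genotype Foxp3(M354/M354), Foxp3(M176/M176) or Foxp3(WT/WT). The transduced groups held conventional CD4+ T cells of WT mice that received M354, M176 or WT Foxp3 by retrovirus in culture and were sorted for high Thy1.1. All 12 samples are labelled as spleen cells of male C57Bl/6 mice aged 6 weeks. Foxp3 is the transcription factor that defines Tregs, and the sources used here do not say which residues M354 and M176 change. No sample analysed here received a virus without Foxp3. Separate animals or cultures behind the 2 arrays of each group are not named in the labels, so the p-values rest on a spread that could be technical.

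All 7 T cell markers lay above the array median on every array. Foxp3 itself had an intensity of 5991 and 5485 in M354 Tregs, 3442 and 3321 in M176 Tregs and 5913 and 5327 in WT Tregs, and between 5233 and 6163 on the transduced arrays. Among Treg arrays the second WT array stood apart in 7 tested B cell markers, with a mean log2 level of 8.45 against 7.03 on the first. The mutant Treg arrays were at 6.97 to 7.29, and the transduced arrays at 8.35 to 8.42. The mean log2 level of 36 small nucleolar and Cajal body RNA genes (snoRNAs), taken as a sign of RNA composition because they too lack poly(A) tails, differed between arrays. It was 8.66 and 8.78 in M354 Tregs, 9.98 and 10.04 in M176 Tregs, and 8.74 and 8.87 in WT Tregs. In transduced cells it was 9.64 and 8.75 with M354, 8.86 and 9.46 with M176, and 8.61 and 9.18 with WT Foxp3.

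To show what members of different families share and do not share in their DNA, the 250 bases before the start of 3 genes are printed from RefSeq, on the GRCm38.p6 build and each gene's own strand. Each is the member of its family with the largest rise in M176 Tregs among those with an entry. They are H2bc8 (chr13:23571150-23571399, plus strand), H4c3 (chr13:23698459-23698708, minus strand) and H1f2 (chr13:23738557-23738806, plus strand). Capitals mark the CCAAT box, which reads ATTGG on the other strand, and the TATA box, searched as TATAAA. They also mark the octamer of H2B promoters, searched as ATTTGCAT, the H1 box, searched as AAACACA, and the core of the H4 site II element, searched as GGTCCG.
H2bc8: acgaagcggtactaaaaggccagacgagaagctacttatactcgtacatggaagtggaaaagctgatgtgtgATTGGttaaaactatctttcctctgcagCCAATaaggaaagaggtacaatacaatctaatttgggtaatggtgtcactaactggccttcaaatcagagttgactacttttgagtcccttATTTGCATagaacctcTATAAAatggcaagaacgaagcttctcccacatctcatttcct
H4c3: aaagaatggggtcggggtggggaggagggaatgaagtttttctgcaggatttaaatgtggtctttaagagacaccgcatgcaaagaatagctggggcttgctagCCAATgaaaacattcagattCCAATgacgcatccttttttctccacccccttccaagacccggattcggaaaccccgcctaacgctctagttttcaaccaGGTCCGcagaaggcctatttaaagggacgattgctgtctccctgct
H1f2: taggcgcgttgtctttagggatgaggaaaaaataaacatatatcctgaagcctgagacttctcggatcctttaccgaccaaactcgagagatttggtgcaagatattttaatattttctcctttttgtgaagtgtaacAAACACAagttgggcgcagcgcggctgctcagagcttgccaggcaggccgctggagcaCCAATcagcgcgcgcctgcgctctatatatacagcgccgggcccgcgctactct

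In the H2bc8 window the octamer begins 59 bases and TATAAA 43 bases before the start. In the H4c3 window GGTCCG begins 46 bases before it, below a pair of CCAAT matches at 146 and 126 bases. In the H1f2 window AAACACA begins 112 bases and CCAAT 54 bases before the start. The letters were searched on both strands, and matches are not shown to be sites at which a factor binds.

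Promoter windows of the same length were matched by symbol for 26 of the 30 members. The other 4 are H2bc21, H2bc4, H3c7 and H4c14. CCAAT was present in 20 of the 26, against 33.8% of 32851 promoters in the RefSeq table, and TATAAA in 14, against 12.4%. The octamer was found in 8 members, against 1.60% of all promoters. These were 5 of 7 H2B genes and 3 of 4 H2A genes, and no H1, H3 or H4 window held it. H2ac8 and H2bc8 are transcribed away from each other and their windows overlap. H2ac1 and H2ac4 also lie next to an H2B gene with the octamer, H2bc1 and H2bc3. Matches in such neighbours may not be separate occurrences. AAACACA was found in 8 members (6.25% of all promoters), among them 4 of 8 H1 genes. GGTCCG was found in 6 members (6.72% of all promoters), among them 4 of 5 H4 genes.

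Of the 30 members, 22 lay above the median of their array on at least 2 arrays and were tested. The other 8 were H3c7, H2ac8, H3c15, H1f6, H1f8, H2bc21, H4c8 and H2bc22, with intensities of 16.4 to 129 on the 12 arrays. Silent genes of other tissues reached 92.3 to 161 at their highest on each array, and 6 of these 8 members lay below that level on all 12 arrays. H3c15 and H4c8 lay above it on 1 array, the first M354-transduced one, at 119.3 and 128.5 against 118.6. A member was called at an adjusted p under 0.05 in limma's fit over 8918 genes. Probes for a histone gene can take up RNA of near-identical genes of its family, so members of a family are not independent measurements.

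**Figure D1:**
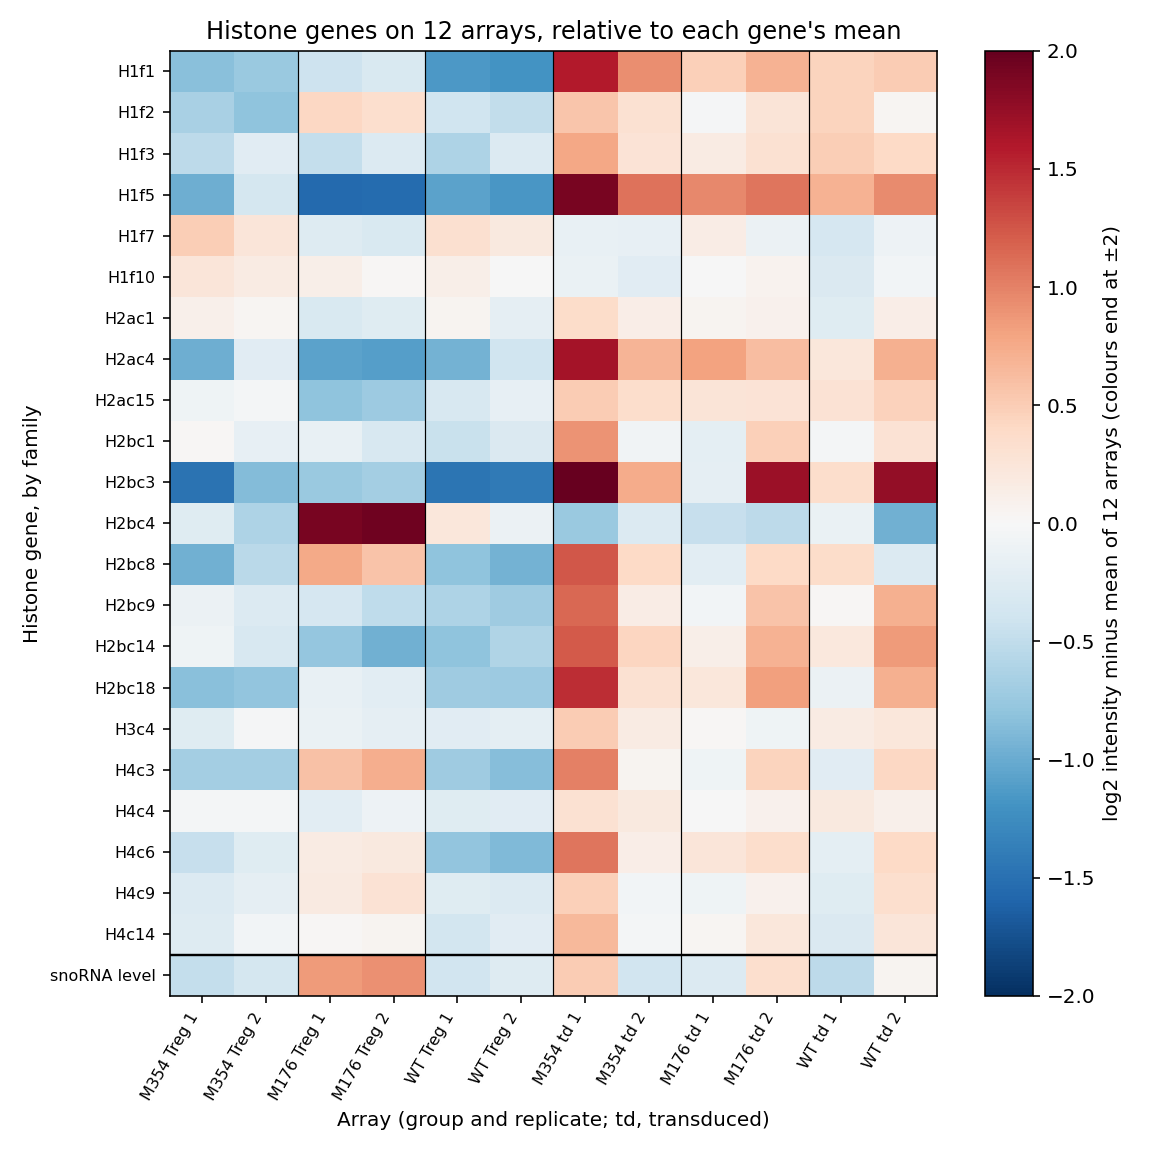
Heat map of the 22 tested histone genes (rows, by family) on the 12 arrays (columns, by group and replicate), as log2 intensity minus the gene's mean over 12 arrays. H2bc4 is above its mean most strongly on both M176 Treg arrays, most other genes are highest in transduced cells, and the bottom row gives the snoRNA level, highest on both M176 Treg arrays and on the first M354-transduced array.

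M176 Tregs differed from WT Tregs in 8 of the 22 tested histone genes, 6 of them higher and 2 lower. The background was 24.7% of all tested genes called, 13.4% higher and 11.3% lower. The 6 that rose were H2bc4, H2bc8, H4c3, H4c6, H1f2 and H1f1, which encode H2B, H4 and H1 proteins. The median log2 difference over the 22 members was 0.19, against -0.04 over all tested genes. A bulk sample does not show whether fewer cells make an RNA or each cell holds less of it.

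Among the H2B genes, H2bc4 changed most. Its intensity was 957 and 982 on the M176 Treg arrays, against 298 and 237 on the WT Treg arrays. Both M176 arrays lay more than 3-fold above either WT array, and also above the 216 and 167 of the M354 Treg arrays. The group means were 969.6 ± 17.4 and 267 ± 43.2 (SD, n = 2 each). The log2 difference from WT was 1.87 ± 0.22 (SE, as for every difference below), with an adjusted p of 2.00e-05. H2bc8, an H2B gene of the same chromosome, had 473 and 416 in M176 Tregs, against 159 and 145 in WT Tregs. The groups did not overlap, and the log2 difference was 1.55 ± 0.25 (adjusted p 0.000403).

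The other tested H2B genes did not pass in the fit of 12 arrays. H2bc3 had 479 and 500.4 in M176 Tregs, against 291 and 301 in WT Tregs, and a log2 difference of 0.73 ± 0.51. The groups did not overlap, yet the adjusted p was 0.313, with a spread taken from all 12 arrays, and H2bc3 varied several-fold on the transduced ones. In a fit of the Treg arrays alone, added after the data were seen, its SE was smaller (0.73 ± 0.17) and it was called. That fit called 11 members, H2bc18 at 0.54 ± 0.13 (adjusted p 0.00562) and H4c9 at 0.49 ± 0.13 (adjusted p 0.0114) among them, against 26.3% of all genes called. H2bc14 had 1526 and 1343 in M176 Tregs, against 1493 and 1731 in WT Tregs, with a log2 difference of -0.17 ± 0.24. H2bc9 had 1484 and 1310.0, against 1221 and 1137, and H2bc18 had 342 and 328, against 231 and 229.7. For H2bc9 and H2bc18 both M176 arrays lay above both WT arrays, and for H2bc14 the order was not as clear, since its second WT array was the highest of the 4 and the first WT array fell between the M176 arrays.

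Among the H4 genes, H4c3 and H4c6 were called. H4c3 had an intensity of 835 and 923 in M176 Tregs, against 341 and 309 in WT Tregs, a log2 difference of 1.43 ± 0.25 (adjusted p 0.000634). H4c6 had 1695 and 1730.5, against 877 and 824, a difference of 1.01 ± 0.23 (adjusted p 0.00423). In both genes the groups were well apart. H4c4, H4c9 and H4c14 encode H4 as well and were not called over the 12 arrays, with log2 differences of 0.08 ± 0.12, 0.49 ± 0.18 and 0.33 ± 0.20.

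Of the linker histones, H1f1 and H1f2 rose. H1f2 had 933 and 883 in M176 Tregs, against 532 and 494 in WT Tregs, a log2 difference of 0.82 ± 0.15 (adjusted p 0.00104). H1f1 had 437 and 471, against 265 and 254, a difference of 0.81 ± 0.17 (adjusted p 0.0025). H1f5 differed in sign from these, with 233 and 237 in M176 Tregs, against 329 and 306 in WT Tregs, and was not called at -0.43 ± 0.22 (adjusted p 0.155). H1f7, a linker histone known from testis, fell at 103 and 100.01, against 154 and 142, a difference of -0.54 ± 0.14 (adjusted p 0.00971). These H1f7 levels lie close to the array median, which was 101.5 to 117.4, and on both M176 Treg arrays silent genes of other tissues reached higher.

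H2ac15 was the member of the H2A family that fell. Its intensity was 3432 and 3623 in M176 Tregs, against 4787 and 5354 in WT Tregs. The log2 difference was -0.52 ± 0.13 (adjusted p 0.00689), and both M176 arrays lay below every other Treg array. H3c4, the tested H3 gene, had 118 and 115, against 110.4 and 113, and was not called at 0.06 ± 0.14 (adjusted p 0.779). On each of these arrays it lay below the highest silent gene, at 128 and 121 in M176 Tregs and 133 on both WT arrays. Its difference is limited by background.

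The 6 genes that rose lie in 1 stretch of chromosome 13. In the gene order of GRCm38.p6, used here for neighbours alone, 23 members are on chromosome 13, 4 on chromosome 3, 2 on chromosome 6 and 1 on chromosome 15. H2bc14, H2ac15, H1f5, H4c9 and H2bc9 come first among the tested members on chromosome 13, and none of these was called higher. From H4c6 to H1f1, with H2bc8, H2bc4, H4c3 and H1f2 between them, come all 6, interspersed with tested genes that were not called (H1f3, H3c4, H4c4, H2bc3 and H2ac4). In the fit of Treg arrays alone, H4c9, which comes before this stretch, and H2bc18, on chromosome 3, were called higher too. The stretch was drawn around the calls themselves, and a local grouping was not tested.

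The snoRNA level moved with this comparison. It was above 9.9 on both M176 Treg arrays and below 8.9 on both WT Treg arrays, and 21 of 36 snoRNAs were called higher and 0 lower. With the array's snoRNA level as a covariate, a setting in which 4.08% of all tested genes were called, 3.14% higher and 0.942% lower, 8 members were called again but 1 was higher and 7 were lower. H2bc4 was the one that stayed higher, at 2.66 ± 0.29. H2bc8 was at 0.92 ± 0.40, H1f2 at 0.72 ± 0.26, H4c3 at 0.22 ± 0.22, H1f1 at 0.19 ± 0.22 and H4c6 at 0.02 ± 0.25, none of them called. Called lower were H2bc3 at -1.95 ± 0.32, H2bc14 at -1.29 ± 0.24, H1f5 at -1.21 ± 0.29, H2bc9 at -1.04 ± 0.24, H2bc1 at -1.02 ± 0.24, H2bc18 at -0.94 ± 0.22 and H2ac15 at -0.76 ± 0.20. The 2 arrays of each Treg group differed in snoRNA level by 0.06 to 0.13, so the slope of this covariate rests on the transduced arrays.

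**Figure D2:**
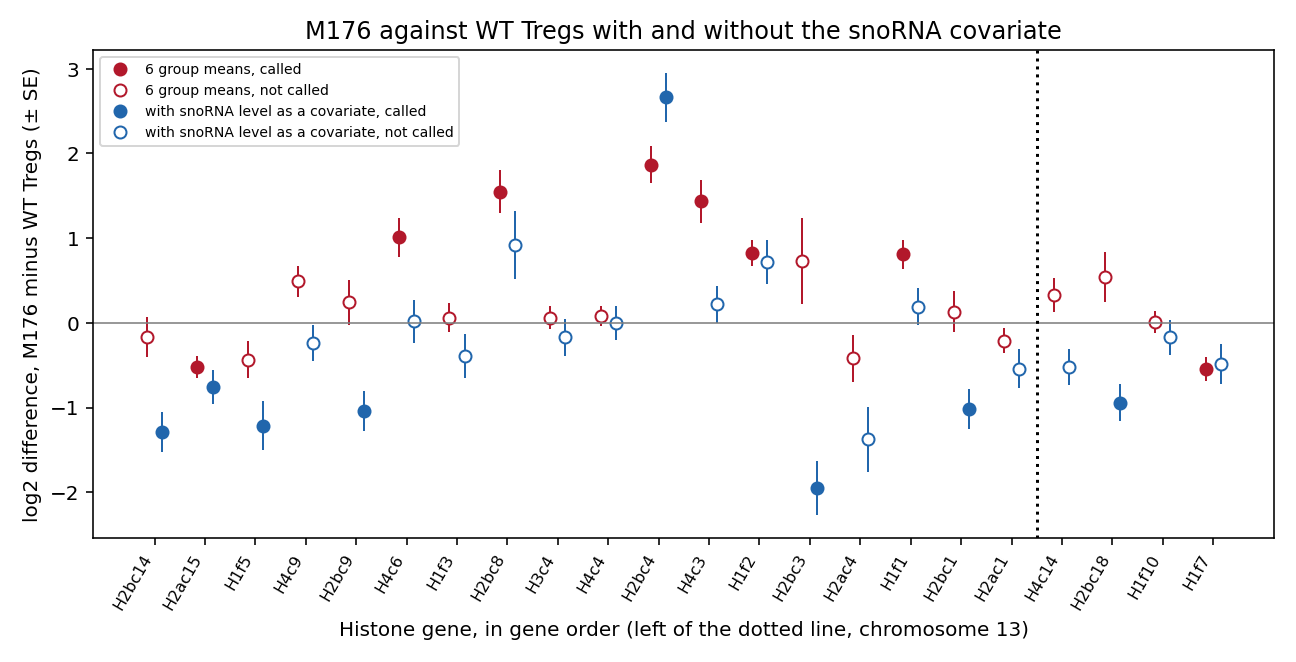
Log2 difference of each tested histone gene between M176 and WT Tregs (points, with the SE as bars), in gene order along chromosome 13 and then the other chromosomes, from the fit of 6 group means (red) and with the array's snoRNA level as a covariate (blue). Filled points were called. H2bc4 is at 1.87 and 2.66 in the 2 fits, H4c3 and H4c6 are at 0.22 and 0.02 with the covariate, and H2bc3 changes sign.

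H2bc4 was called higher in this comparison under all 22 alternatives run, with log2 differences of 1.70 to 2.66 and adjusted p of 3.85e-07 to 0.000554 in limma. The call of H2bc8, H4c3, H4c6, H1f2 or H1f1 was lost under 1 of the 22, the snoRNA covariate. The call of H1f7 was lost under 4 of 21 alternatives (the snoRNA covariate, without either M176 Treg array and without the first WT Treg array), with adjusted p up to 0.279. That of H2ac15 was lost under 2 of 22 (without the first M176 Treg array and without the second WT Treg array), with adjusted p up to 0.0767. Without the second WT Treg array, the one with the higher B cell markers, each of the 6 genes that rose kept its call, with 1 WT Treg array left.

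Markers of cell types changed in this comparison as well. Of 7 T cell markers 5 were called lower in M176 Tregs and 0 higher, with a median log2 difference of -0.48. Their summed intensity was 32205 and 31143 on the M176 Treg arrays, against 43454 and 42383 on the WT Treg arrays. Of 7 B cell markers 2 were called lower and 0 higher, with a median of -0.96 and a summed intensity of 1543 and 1446, against 1564 and 3375 in WT Tregs, the second WT array standing apart. Neither of the 2 CD8+ T and NK cell markers tested was called. The part of these differences in the histone result was not tested.

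Histone probe sets that name several genes were examined apart, since near-identical copies cannot be separated. There were 24 of them, 10 for H3 genes, 6 for H2B, 5 for H4, 2 for H2A and 1 naming both H2bc6 and H1f4, and the fit that kept such sets called 25.6% of its 9689 features in this comparison. All 10 H3 sets were called lower in M176 than in WT Tregs, with log2 differences of -0.55 to -0.41. Their intensities were 5224 to 5865 on the M176 Treg arrays and 7142 to 8586 on the WT Treg arrays. The H3 genes are near copies of each other, so these sets are not independent of each other. None of the H2A, H2B and H4 sets was called. The set of H2bc6 and H1f4 had 327 and 379 in M176 Tregs, against 141 and 136 in WT Tregs, a log2 difference of 1.35 (adjusted p 0.000111). With the snoRNA covariate the 6 H2B sets were called lower, and neither the H3 sets nor the set of H2bc6 and H1f4 was called.

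The genes that act around histone mRNA did not move as a block. Slbp, which binds the stem-loop, had 459 and 405 in M176 Tregs, against 353 and 382 in WT Tregs, and was not called at 0.23 ± 0.16 (adjusted p 0.303). Npat was at -0.03 ± 0.16 (adjusted p 0.921) and Casp8ap2, a component of the histone locus body, at 0.07 ± 0.15 (adjusted p 0.747). Of 23 tested genes of histone transcription and 3′ processing, 2 rose and 3 fell. Lsm10, part of the U7 particle that cuts histone pre-mRNA, rose with 353 and 353 in M176 Tregs, against 149 and 133 in WT Tregs, a difference of 1.33 ± 0.22 (adjusted p 0.000363). Ybx1 was higher as well (0.77 ± 0.18), and Ccne2, the cyclin E2 gene, was lower (-0.74 ± 0.20), as were Ncbp1 (-0.48 ± 0.16) and Tut7 (-0.46 ± 0.14).

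Of 19 tested histone chaperones 1 rose and 1 fell. Nasp, a chaperone of linker and core histones, was at 0.68 ± 0.20 (adjusted p 0.0201), with 252 and 167 in M176 Tregs and 124 and 131 in WT Tregs. Asf1b, which hands H3 and H4 to the replication machinery, was at -0.63 ± 0.15 (adjusted p 0.00663), with 349 and 275 in M176 Tregs and 462 and 497 in WT Tregs. Of 5 histone variants, made outside S phase as well, H2az1 (0.59 ± 0.15) and H2aj (0.59 ± 0.13) rose and 0 fell.

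Genes of S phase and mitosis changed too. Of 40 tested genes of DNA replication and S phase, 4 rose and 9 fell, with a median log2 difference of -0.07. Rrm2, a subunit of ribonucleotide reductase, had 150.1 and 119 in M176 Tregs, against 340.2 and 513 in WT Tregs, a difference of -1.65 ± 0.21. Its arrays did not overlap between the groups. Uhrf1, a factor of maintenance methylation, was at -0.70 ± 0.16, Tk1, thymidine kinase, at -0.70 ± 0.13 and the transcriptional repressor E2f8 at -2.18 ± 0.18, all called lower. Rpa3, a subunit of the single-strand binding protein RPA, was at 1.29 ± 0.17 and the replication fork protein Tipin at 1.17 ± 0.24, both called higher. Of 21 mitosis genes 0 rose and 16 fell, with a median of -1.01.

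**Figure D3:**
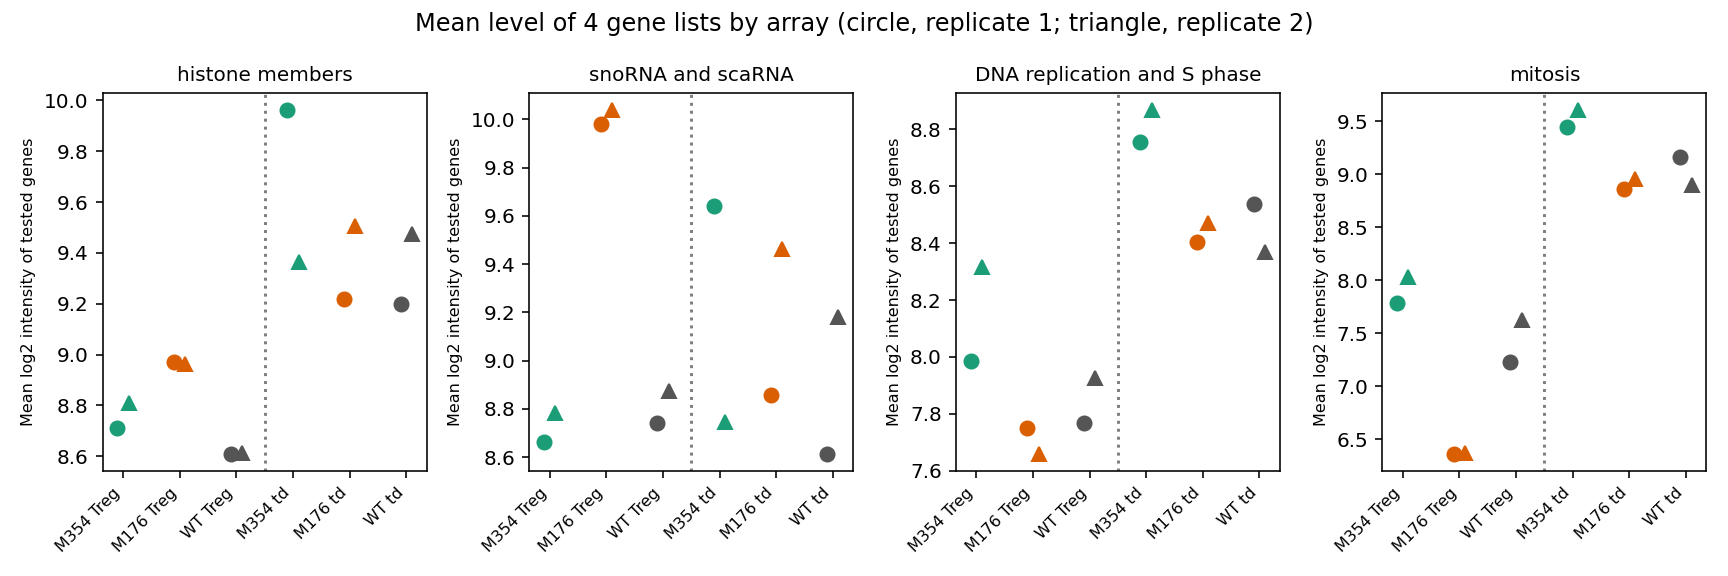
Mean log2 intensity, on each of the 12 arrays, of the tested members of 4 lists (a panel each): the 22 histone genes, 36 snoRNAs, 40 genes of DNA replication and S phase, and 21 mitosis genes. Both M176 Treg arrays are above the WT Treg arrays in the first 2 panels and lowest of the 12 arrays in the mitosis panel.

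No tested histone gene was called between M354 and WT Tregs. The count was 0 of 22 by limma, against 1.81% of all genes called, and 2 members had an unadjusted p under 0.05. Log2 differences of the members ran from -0.48 (H2bc4) to 0.50 (H2bc14), and the smallest adjusted p was 0.401. H2bc14 had 2472 and 2103 in M354 Tregs, against 1493 and 1731 in WT Tregs, and H1f5 had 349.9 and 541, against 329 and 306. For both genes the M354 arrays lay above the WT arrays, and neither passed. The log2 difference was above 0 in 19 of the 22 members and in 3491 of all 8918 tested genes. The median was 0.13 over the members, against -0.04 over all genes. Members of a family are not independent, so these signs are not 22 separate observations. None of the 6 genes that rose in M176 Tregs was called here. H2bc8 had 143 and 193 in M354 Tregs, against 159 and 145 in WT Tregs, at 0.13 ± 0.25. H1f2 had 443 and 401, against 532 and 494 (-0.28 ± 0.15), and H1f1 had 328 and 349, against 265 and 254 (0.38 ± 0.17). H4c6 had 1098 and 1281, against 877 and 824 (0.48 ± 0.23), and H4c3 had 345 and 349, against 341 and 309 (0.10 ± 0.25). H2bc4 had 216 and 167, against 298 and 237 (-0.48 ± 0.22). H2bc9, which is not among the 6, had 1729 and 1548, against 1221 and 1137 (0.47 ± 0.27). In H1f1, H4c6, H4c3 and H2bc9 both M354 arrays lay above both WT arrays, in H4c3 by little. In H1f2 and H2bc4 both lay below, and in H2bc8 the groups overlapped. With 2 arrays a group such an order can arise without a difference, and its share over all tested genes was not counted. Of the chaperones, Asf1b was called higher, at 0.75 ± 0.15 (adjusted p 0.014). Slbp was at 0.23 ± 0.16, Npat at 0.01 ± 0.16 and Casp8ap2 at -0.08 ± 0.15, none called. Of 21 mitosis genes 3 were called higher and all 21 had a log2 difference above 0, with a median of 0.51. Of 40 S phase genes 0 were called and 39 had a difference above 0, with a median of 0.30. With the snoRNA covariate H2bc14 and H2bc9 were called higher, at 0.58 ± 0.14 and 0.56 ± 0.14, against 2.47% of all genes.

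The mutant Tregs differed from each other in 8 of 22 members, 4 higher and 4 lower in M354, against 30.8% of all genes called, 12.7% higher and 18.1% lower. The count is near the share of all genes and does not set the members apart from other genes. This comparison shares the M176 arrays with that of M176 and WT Tregs, so the 2 are not independent. Lower in M354 were H2bc4 at -2.35 ± 0.22 (adjusted p 1.44e-06), H2bc8 at -1.42 ± 0.25, H4c3 at -1.34 ± 0.25 and H1f2 at -1.11 ± 0.15. H4c3, for example, had 345 and 349 in M354 Tregs, against 835 and 923 in M176 Tregs. Higher in M354 were H1f5 at 0.89 ± 0.22, H2ac15 at 0.71 ± 0.13, H2bc14 at 0.67 ± 0.24 and the testis gene H1f7 at 0.65 ± 0.14. On both M176 Treg arrays H1f7 lay below the highest silent gene. H2ac15 had 5690.2 and 5857 in M354 Tregs, against 3432 and 3623 in M176 Tregs, and H1f5 had 349.9 and 541, against 233 and 237. In both the groups did not overlap. The call of H2bc14 was lost under 6 of 22 alternatives, among them with the sets naming several genes kept and without any 1 of the 4 arrays compared, with adjusted p up to 0.258. That of H1f5 was lost without the second M354 Treg array (adjusted p 0.0876), and that of H1f7 with the snoRNA covariate (adjusted p 0.158).

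Around these members, 17 of 40 S phase genes were called higher in M354 Tregs and 1 lower, and 19 of 21 mitosis genes were called higher and 0 lower. Asf1b was at 1.38 ± 0.15, E2f1, which drives S phase genes, at 0.90 ± 0.15, Ccne2 at 0.80 ± 0.20 and Ccne1 at 0.58 ± 0.14, all called higher. Lsm10 was called lower at -1.32 ± 0.22, as were Nasp at -0.58 ± 0.20 and H2az1 at -0.50 ± 0.15. Of the cell type markers, 3 of 7 for T cells and 1 of 7 for B cells were called higher in M354 Tregs, and 1 of 2 for CD8+ T and NK cells lower, and their part was not tested. Slbp (0.00 ± 0.16), Npat (0.04 ± 0.16) and Casp8ap2 (-0.15 ± 0.15) were not called. The 10 H3 sets that name several genes were higher in M354, by 0.77 to 0.94, against 31% of all features called in that fit. Here too the snoRNA level differed, with 24 of 36 snoRNAs called lower in M354. With that level as a covariate, where 6.39% of genes were called, 1.86% higher and 4.53% lower, 10 members were called, 8 higher and 2 lower. H2bc4 at -3.20 ± 0.30 and H1f2 at -0.99 ± 0.27 were the 2 lower ones, H2bc8 and H4c3 were not called, and H2bc3 was called higher at 2.40 ± 0.34. On the arrays H2bc3 was lower in M354 Tregs, at 287 and 441 against 479 and 500.4. Its difference without the covariate was -0.46 ± 0.51. H2bc18 changed sign too, from -0.63 ± 0.29 to 0.96 ± 0.23. The slope rests on the transduced arrays, with snoRNA gaps of 0.57 to 0.89 inside a group, and the mutant Treg groups lay further apart.

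In transduced cells few of these genes were called. Between M354-transduced and WT-transduced cells 1 of 22 members was called, against 1.33% of all genes called. H1f1 had 1757 and 1111 with M354, against 794 and 834 with WT Foxp3. The first M354 array was well above the second, both were above the WT arrays, and the log2 difference was 0.78 ± 0.17 (adjusted p 0.0262). This call was lost without the first M354 array, without either WT-transduced array, with cyclic loess normalization and in a fit of transduced arrays alone, each giving 0 members. Without the second M354 array more members were called, and the share of all genes called in that fit is not given here. The median log2 difference over the 22 members was 0.29, against 0.01 over all genes. Above 0 lay 21 of the 22 members, which are not independent, and 4715 of all 8918 tested genes. Other lists lay above 0 with the members. All 40 S phase genes did, with a median of 0.33 and 0 called, and all 21 mitosis genes, with a median of 0.53 and 3 called higher. Of 36 snoRNAs 31 did, with a median of 0.30 and 0 called. Of 7 T cell markers 1 was called lower.

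Between M176-transduced and WT-transduced cells 0 of 22 members were called by limma, against 0.516% of all genes called, and 0 members had an unadjusted p under 0.05. Between M354-transduced and M176-transduced cells 0 were called, against 0.0785%, with 4 members under an unadjusted 0.05. H2bc4 had 154 and 211 with M354, 186 and 178 with M176 and 235 and 131 with WT Foxp3, and the groups overlapped.

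The other members called in any comparison differed in how far the arrays of the 3 alleles overlapped. H2bc8 had 662 and 368 with M354, 241 and 367 with M176 and 359 and 231 with WT Foxp3. H4c3 had 1116 and 574 with M354, 522 and 759.5 with M176 and 475 and 737 with WT Foxp3. In both genes the first M354 array was the highest of the 6. The other 5 arrays interleaved in H4c3, while in H2bc8 the second M354 array was just above the M176 and WT ones. H4c6 had 3195 and 1665 with M354, 1799 and 1929 with M176 and 1322 and 2003 with WT Foxp3. H1f2 had 1029 and 863 with M354, 687 and 834 with M176 and 945 and 716 with WT Foxp3. The spread of H1f2 was narrow, with no group apart from the others. H1f5 had 2562 and 1462 with M354, 1347 and 1439 with M176 and 1114 and 1327 with WT Foxp3, and the log2 difference of M354 from WT was 0.67 ± 0.22 (adjusted p 0.182). Both M354 arrays lay above the other 4, the second by little. H2ac15 had 8585 and 7654 with M354, 7164 and 7300.1 with M176 and 7317 and 8269.8 with WT Foxp3.

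The 2 arrays of a transduced group differed from each other in many members. H2bc3 had 3853 and 1339 with M354, 709 and 2627 with M176 and 1026 and 2716 with WT Foxp3, a gap of more than 2-fold inside each group. H2bc9 had 4130.0 and 2074 with M354, 1787 and 2773 with M176 and 1893 and 3056 with WT Foxp3. H2bc18 had 1064 and 471 with M354, 448 and 669.6 with M176 and 351 and 624 with WT Foxp3. In these H2B genes the high array was the first with M354 and the second with M176 and with WT Foxp3. H2bc14 had 6139 and 3507 with M354, 2851 and 4245 with M176 and 3041 and 4702 with WT Foxp3. In each of the 3 groups the array with the higher snoRNA level had most histone genes higher. These were 21 of 22 members on the first M354 array, where the snoRNA gap was 0.89 and the median member gap 0.67. On the second M176 array 18 members were higher, with gaps of 0.60 and 0.16, and on the second WT array 17, with gaps of 0.57 and 0.29. Of all tested genes 35.9%, 44.7% and 32.3% were higher on these arrays. Over the 3 groups, 14 members were higher on that array in all 3, 7 in 2, and H2bc4 in 0. In Tregs, where the snoRNA gaps were 0.06 to 0.13, the array with the higher level had 13 of 22 members higher with M354, 12 with M176 and 9 with WT Foxp3. The part of RNA composition in these gaps was not tested.

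**Figure D4:**
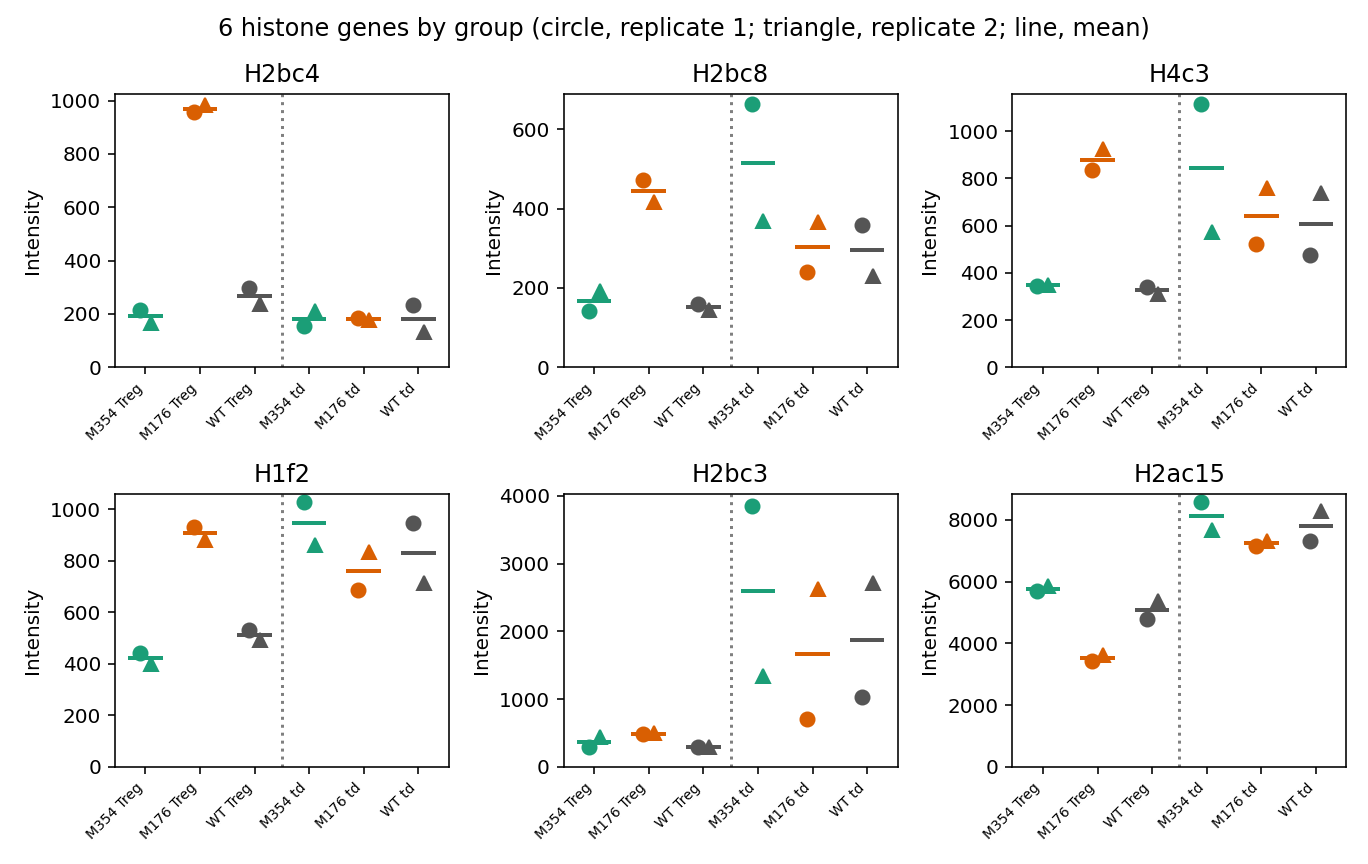
Intensity (linear axis from 0) of 6 histone genes on each array (circle, replicate 1; triangle, replicate 2; line, group mean), with Tregs left of the dotted line and transduced (td) cells right of it. H2bc4 is near 970 on both M176 Treg arrays and under 300 on the other 10, H2bc3 differs several-fold between the arrays of a transduced group, and H2ac15 is lowest in M176 Tregs.

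The effect of an allele was set against itself across the 2 cell systems by a test of the difference. For M176, 5 of 22 members differed between Tregs and transduced cells, 4 higher and 1 lower in Tregs, against 5.49% of all genes called, 4.03% higher and 1.47% lower. H2bc4 led with a difference of the log2 effects of 1.82 ± 0.31 (adjusted p 0.00303): the M176 effect was 1.87 ± 0.22 in Tregs and 0.05 ± 0.22 in transduced cells. H2bc8 (1.50 ± 0.36), H4c3 (1.34 ± 0.35) and H1f2 (0.94 ± 0.22) were also higher, and H1f7 was lower (-0.78 ± 0.20). Of the 4 groups compared, H1f7 lay above the highest silent gene in WT Tregs alone, so its difference is limited by background. H2bc4 was called under all 21 alternatives run. The count was 1 without the first M176 Treg array or the first M176-transduced array, 3 without the second M176 Treg array or the first WT Treg array, and 2 without the first WT-transduced array. The calls of H2bc8 and H1f2 were each lost under 4 of 21 alternatives, that of H4c3 under 12 of 21 and that of H1f7 under 6 of 20. With the snoRNA covariate 2 members were called, H2bc4 higher at 2.44 ± 0.30 and H1f5 lower at -1.24 ± 0.30, against 1.91% of all genes. For M354, 0 of 22 members were called between the systems by limma, against 1.08%, and 1 had an unadjusted p under 0.05.

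Most tested members were lower in WT Tregs than in WT-transduced cells. Of 22 members 15 were called lower and 2 higher, against 19.4% and 10.9% of all genes (30.2% in all). The median was -0.77 over the members, against -0.08 over all genes. Cultured transduced cells and freshly sorted Tregs differ in cell type, culture and the virus at once, and these cannot be told apart.

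H2B genes had the widest range of log2 differences. H2bc3 had 291 and 301 in WT Tregs, against 1026 and 2716 in WT-transduced cells, a log2 difference of -2.50 ± 0.51 (adjusted p 0.00139). H2bc14 had 1493 and 1731, against 3041 and 4702 (-1.23 ± 0.24). The groups did not overlap in either gene, nor in H2bc9, which had 1221 and 1137, against 1893 and 3056 (-1.03 ± 0.27). H2bc18 was called lower as well, with 231 and 229.7 in WT Tregs, against 351 and 624 in WT-transduced cells (-1.02 ± 0.29), and so was H2bc8, with 159 and 145, against 359 and 231 (-0.92 ± 0.25). H2bc4 went the other way, with 298 and 237 in WT Tregs, against 235 and 131 in WT-transduced cells, at 0.60 ± 0.22 (adjusted p 0.0483). Its groups did not overlap by a small gap, and the call was lost under 10 of 21 alternatives.

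Of the linker histones, H1f5 had 329 and 306 in WT Tregs, against 1114 and 1327 in WT-transduced cells, at -1.94 ± 0.22 (adjusted p 3.13e-06). H1f1 had 265 and 254, against 794 and 834, at -1.65 ± 0.17 (adjusted p 1.21e-06). Both stood far outside the spread of their groups. H1f2 was lower by a smaller amount, -0.68 ± 0.15, with 532 and 494 in WT Tregs, against 945 and 716, and H1f3 had 69.2 and 87.8, against 148 and 139 (-0.88 ± 0.17). H1f7, known from testis, was higher in WT Tregs with 154 and 142, against 97.7 and 115 (0.48 ± 0.14).

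Among the other core histones, H4c6 had 877 and 824 in WT Tregs, against 1322 and 2003 in WT-transduced cells (-0.94 ± 0.23). H4c3 had 341 and 309, against 475 and 737 (-0.86 ± 0.25), and H4c4 had 10971 and 11116, against 14941 and 13932 (-0.39 ± 0.12). All 3 were called. H2ac15 had 4787 and 5354 in WT Tregs, against 7317 and 8269.8 (-0.62 ± 0.13), and H2ac4 had 66.0 and 96.3, against 149 and 207 (-1.14 ± 0.28). H3c4 had 110.4 and 113, against 146 and 152 (-0.42 ± 0.14). In WT Tregs H1f3 and H2ac4 lay below the array median, and H1f3, H2ac4 and H3c4 lay below the highest silent gene, which was at 133 on both arrays. In WT-transduced cells H1f7 lay below the highest silent genes, at 120.3 and 129. The size of these 4 differences is limited by background.

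Of the 17 calls, those of H2bc3, H2bc14, H1f1, H1f5, H1f3 and H2ac15 were kept under every alternative run. Each of 4 members lost its call under 4 alternatives. These were H4c3 (quantile and cyclic loess normalization, without the second WT Treg array and without the second WT-transduced array) and H2bc18 (the same normalizations, without the first WT Treg array and without the second WT-transduced array). They were also H4c4 (quantile normalization, without either WT Treg array and without the first WT-transduced array) and H3c4 (without any 1 of the 4 arrays). Adjusted p ran up to 0.144 for these. Without the first WT-transduced array the calls of H1f2, H2bc8 and H1f7 were lost, without the second those of H2bc9 and H4c6, and without the first WT Treg array those of H2ac4 and H1f7.

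Some of the genes around the histone mRNAs were lower in WT Tregs too. Of 23 genes of histone transcription and 3′ processing 9 were called lower, 0 higher and 14 in neither direction. Of 19 histone chaperones 6 were called lower, 0 higher and 13 in neither direction, and of 5 histone variants 4 were lower. Slbp had 353 and 382 in WT Tregs, against 651 and 478 in WT-transduced cells, at -0.60 ± 0.16 (adjusted p 0.00811). Npat was at -0.49 ± 0.16 and Casp8ap2 at -0.51 ± 0.15, both called lower. Of 40 S phase genes 27 were lower and 0 higher, and of 21 mitosis genes all 21 were lower. Of the 24 histone sets naming several genes, the 10 H3, 6 H2B and 2 H2A sets were all lower in WT Tregs, as were 1 of 5 H4 sets and the set of H2bc6 and H1f4, against 28.6% of all features called. Markers of other cells differed as well, with 3 of 7 B cell markers and 2 of 2 CD8+ T and NK cell markers called lower in WT Tregs, and their part in the result was not tested. The mean log2 level of the B cell markers was 7.03 and 8.45 in WT Tregs, against 8.41 and 8.42 in WT-transduced cells. Only the first WT Treg array was below the transduced ones. The mean snoRNA level of these 4 arrays overlapped between the groups. The count was 11 without the first WT Treg array and 11 without the second WT-transduced array.

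Members known from testis or oocyte and the replication-independent H1f10 are set apart here. H2ac1 and H2bc1 lay above the array median on all 12 arrays and were called in 0 of the 9 comparisons. H2bc1 had 171 and 152 in M176 Tregs, against 139 and 155 in WT Tregs, and H2ac1 had 266 and 278, against 341 and 291. H1f10 had 130.0 and 122 in M176 Tregs, against 130.4 and 119 in WT Tregs, and was called in 0 comparisons. Over the 9 comparisons 17 members were called at least once.

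Among the 8 members that were not tested, H4c8 had 91.2 and 99.6 in M176 Tregs, against 46.0 and 47.8 in WT Tregs, and H2ac8, which shares its upstream window with H2bc8, had 38.1 and 32.8, against 23.9 and 23.6. Both M176 arrays were above both WT arrays in each, at levels that silent genes also reach.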

How the data were processed

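RNA of 12 samples of mouse CD4+ T cells was measured on Affymetrix Gene ST 1.0 arrays. The intensities are linear values that the authors deposited after RMA in Affymetrix Power Tools, per the submitters' processing notes; the genome build is not given in the sources used here. Groups come from the sample titles. The table has 20716 probe sets, of which 17703 name 1 gene, 1246 several and 1767 none in the annotation supplied, and array medians were 101.5 to 117.4. Arrays have no depth, and their number, 2 per group, limits the precision. Statements that the arrays of 2 groups did or did not overlap describe the values, and no share over all genes was counted. With 2 arrays a group, groups without overlap can arise without a difference, so such statements add no support to a call.

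Each gene was represented by its singly named probe set, the brightest by mean of 12 arrays where there were several. Genes above the median (percentile 50) of their array on at least 2 arrays were tested, 8918 in all. Log2 intensities were fitted with limma 3.58.1 in R 4.3.3 (statmod 1.5.0), with 6 group means, no block and 6 residual degrees of freedom. The empirical Bayes prior was worth 10.9. Benjamini-Hochberg adjustment ran over all tested genes within each of 9 comparisons, and adjusted p in the text are limma's. On simulated data for M176 against WT Tregs, with 200 of 8918 genes changed, the fit recovered 98% of genes changed by a log2 of 1. It recovered 100% of those changed by 2, with 14 false calls among the unchanged genes. The simulated noise was independent between genes and arrays and had the spread of the fit itself. The simulation therefore does not cover gaps between arrays that many genes share.

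The members, gene lists and alternatives were chosen with earlier results of these data known, so counts over lists are descriptions. Every member called in at least 1 comparison is given with array values, up to 25. Of each list up to 6 called genes with the largest change may be named, and Slbp, Npat and Casp8ap2 always are. Other members named in sentences were chosen after their values were seen. The lists were histone variants, histone transcription and 3′ processing, histone chaperones, DNA replication and S phase, mitosis, snoRNAs, silent genes, and markers of T, B, myeloid, CD8+ T and NK, and erythroid cells. No myeloid or erythroid marker lay above the array median on any array. Alternatives were other filters, normalizations, probe set rules and priors, the replicate block, the snoRNA level as a covariate, each array left out, and fits of one cell system alone. Promoter windows are RefSeq's, and motifs were searched as exact letters.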

Additional observations from a re-analysis of the deposited data

Results flagged for a closer look

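The M176 effect on 5 histone genes differed between Tregs and transduced cells by limma's test of that difference. It is given as the log2 effect in Tregs minus the log2 effect in transduced cells. H2bc4 was at 1.82 (adjusted p 0.00303), H2bc8 at 1.50 (adjusted p 0.0217), H4c3 at 1.34 (adjusted p 0.0347) and H1f2 at 0.94 (adjusted p 0.0176). The testis gene H1f7 was at -0.78 (adjusted p 0.0301). It lay below the highest silent gene on both arrays of M176 Tregs, of M176-transduced and of WT-transduced cells, so its difference is limited by background. Over the alternatives the adjusted p ran from 6.10e-05 to 0.0181 for H2bc4, from 0.00569 to 0.249 for H2bc8, from 0.00765 to 0.418 for H4c3, from 0.00554 to 0.133 for H1f2 and from 0.0201 to 0.160 for H1f7. The call of H4c3 was lost under 12 of 21 alternatives. The snoRNA level of the M176 arrays differed between the systems too, at 9.98 and 10.04 in Tregs and 8.86 and 9.46 in transduced cells.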

How the results depend on the processing

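For the 39 pairs of a called member and its comparison, 745 recomputed results kept their direction and call, 85 kept the direction and lost the call, and 0 reversed. Leaving out an array of a group that is not compared could not change a direction. The tally also leaves out members that were not called. H2bc3 in M176 against WT Tregs, for example, went from 0.73 to -1.95 with the snoRNA covariate. With the snoRNA level as a covariate, the members called numbered 2 for M354 against WT Tregs and 2 for the M176 effect between the systems. Cyclic loess normalization and a fit of transduced arrays alone each gave 0 for M354 against WT transduced cells, and a fit of Treg arrays alone gave 13 for M354 against M176 Tregs. A recomputed count given without the share of all genes called does not show whether histone genes moved more than other genes. Above percentile 75 of every array lay 7 members, in place of 17 above the median. Leaving out 1 array at a time gave 0 to 0 for M354 against WT Tregs, 6 to 9 for M176 against WT Tregs and 6 to 12 for M354 against M176 Tregs. It gave 0 to 6 for M354 against WT transduced, 0 to 1 for M354 against M176 transduced, 1 to 6 for the M176 effect and 11 to 17 for WT Tregs against WT transduced. The 1 call between the mutants in transduced cells came without the second M354-transduced array. The causes were not tested. Quantile normalization moved the median of all genes in WT Tregs against WT transduced from -0.08 to 0.03.

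With the replicate number as a block the counts were 8 for M176 against WT Tregs, 7 for M354 against M176 Tregs (without H2bc14), 1 for M354 against WT transduced, 5 for the M176 effect and 17 for WT Tregs against WT transduced. The shares of all genes called in that fit are not given here. These counts therefore do not show whether histone genes moved more than other genes. Deviations of samples with the same number correlated at -0.55 to 0.25 over 15 pairs of groups, above 0.1 in 3. Equal numbers therefore do not mark a shared deviation across all groups. In transduced cells the correlation of M354 with WT was -0.55 and with M176 -0.33, and over the members alone -0.71 and -0.70. For M176 with WT it was 0.04 over all genes and 0.52 over the members. The source of this pattern was not tested. With the M354 numbers crossed, a replicate block over transduced arrays alone called 1 member for M354 against WT, and the share of all genes called there is not given either.

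The 2 arrays per group limit the precision, and members near the array median lie at levels that silent genes of other tissues also reach.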
